A study of Rattus norvegicus with 12 samples.

Results

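The selectins, their ligand, the endothelial adhesion molecules and the leukocyte integrins were followed across the left ventricle of rats with and without myocardial infarction (MI). Members were chosen by symbol from a list of 9 genes, Sele, Selp, Selplg, Icam1, Vcam1, Itgam, Itgal, Itgb2 and Itga4. Of these, 8 had a row among the 34599 rows of the count table, and all 8 passed the filter on low counts. Itgam had no row under its symbol, and no value is given for it.

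White blood cells leave the blood in steps. Endothelial cells and platelets display P-selectin (Selp), and activated endothelium makes E-selectin (Sele); both bind PSGL-1 (Selplg) on leukocytes, so that the cells slow down and roll. Integrins then arrest them: LFA-1, the pair of Itgal and Itgb2, and Mac-1, the pair of Itgam and Itgb2, hold on to ICAM-1 (Icam1), while VLA-4, the pair of Itga4 and Itgb1, holds on to VCAM-1 (Vcam1). In the infarcted heart this route is known for bringing in neutrophils first and monocytes after them.

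RNA was taken from 12 male SD rats, 4 in each group, 1 rat per library, at day 1 after surgery according to the labels. The label of the tissue is left ventricle, and the protocol names the infarct region. Sham rats had the chest opened but no coronary ligation. MI rats had the left anterior descending artery tied and no treatment. The iCarP+/Light+ rats had the same ligation, then an injection of the green alga Chlorella into the infarcted wall, a polymer light-guiding patch (iCarP) glued over it, and continuous illumination. According to the paper, the light was limited by the time of anesthesia and the fiber was then withdrawn. Alga, patch, adhesive and light came together and cannot be told apart here, and the 12 libraries held none from the group with patch and no light. Age was not stated for the infarct experiment. MI rats were numbered 1, 3, 4 and 5, iCarP+/Light+ rats 1, 2, 4 and 5, and Sham rats 1, 2, 3 and 5, and the values of a group are given in the order of these numbers. The labels name no batch, and p-values measure the spread between these rats only.

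Libraries held 14064414 to 17136958 counts. The share on the mitochondrial chromosome was 22.8% to 28.9% in Sham rats, 8.52% to 11.5% in MI rats and 7.14% to 14.2% in iCarP+/Light+ rats. Summed over 8 cardiomyocyte markers, the level was 35941 to 39435 CPM (counts per library of 1000000) in Sham rats, 1981 to 4308 CPM in MI rats and 2111 to 4981 CPM in iCarP+/Light+ rats. Endothelial markers, other than Cldn5 with 0 counts in every rat, summed to 2035 to 2256 CPM in Sham rats, 958 to 1418 CPM in MI rats and 1190 to 1391 CPM in iCarP+/Light+ rats. In such bulk tissue, fewer cells of a type and less RNA per cell cannot be told apart. Throughout, CPM are scaled by TMM, which equalizes library composition, and fold changes with standard errors (SE) and adjusted p come from edgeR's quasi-likelihood test over 15101 genes.

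In MI against Sham, 7 of the 8 members rose, namely Sele, Selp, Selplg, Icam1, Itgal, Itgb2 and Itga4, and 0 fell. Over all genes tested, 30.2% rose and 33.6% fell, in numbers 4553 and 5080, or 7707 and 2776 with libraries scaled by total counts alone. For the same 7 members every MI rat lay above every Sham rat, which held for 27.6% of all genes, while 31.4% had every MI rat below. The median log2 fold change was 1.93 over the members and -0.06 over all genes. Because the members were chosen with earlier results of these data known, such counts describe them and do not test them as a set.

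In iCarP+/Light+ against MI, 4 members rose further, namely Selp, Selplg, Icam1 and Itgal, and 0 fell, where 11.6% of all genes rose and 2.01% fell. These were 1747 and 304 genes, or 1204 and 2722 by total counts alone, a scaling under which 2 members (Selp and Icam1) were called higher and 2 (Sele and Itga4) lower. Every iCarP+/Light+ rat lay above every MI rat for Selp, Selplg, Icam1 and Itgb2, against 12.1% of all genes, and 4.37% had every rat below. The median log2 fold change was 0.79 over the members and 0.01 over all genes. In iCarP+/Light+ against Sham, the 7 members that rose after MI were again called higher and 0 lower, beside 33.5% of all genes higher and 33.0% lower (5057 and 4988 genes, or 6664 and 3639 by total counts alone). All 7 had every iCarP+/Light+ rat above every Sham rat, as did 31.9% of all genes, with 31.6% the other way. This last contrast shares its rats with the first 2 and is not independent of them.

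**Figure D1:**
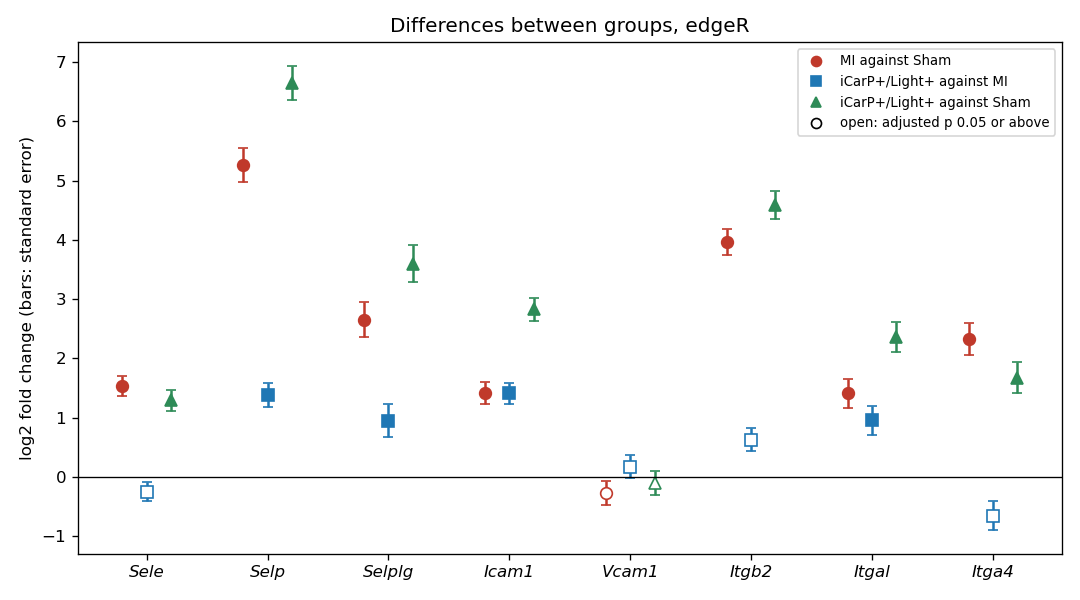
Log2 fold change (vertical axis) of the 8 members in each comparison, with bars for the standard error and open symbols where edgeR's adjusted p was 0.05 or above. Vcam1 is open in all comparisons, and Sele, Itgb2 and Itga4 are open in iCarP+/Light+ against MI.

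Selp, the endothelial and platelet selectin stored ready-made in granules, had the largest fold of the members in MI against Sham. It lies at chr13:82429063-82464628 on the plus strand (coordinates as in the count table, build rn6 per the submitters' processing notes). Its level was 0.795, 0.683, 0.380 and 0.958 CPM in Sham rats, from 5 to 13 counts each, 26.1, 27.6, 27.9 and 28.2 CPM in MI rats, and 72.8, 57.3, 50.3 and 106 CPM in iCarP+/Light+ rats. The 3 groups did not overlap, and the coefficient of variation was 3.41% in MI rats and 34.6% in iCarP+/Light+ rats. By edgeR, Selp rose 38.5-fold in MI against Sham (log2 fold change 5.27, SE 0.29, adjusted p = 4.78e-08). It rose a further 2.61-fold in iCarP+/Light+ against MI (log2 fold change 1.38, SE 0.21, edgeR adjusted p = 5.86e-04). The highest rat, iCarP+/Light+ rat 5, held 106 CPM, and without it the log2 fold change against MI was still called, at 1.05.

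Platelets also carry Selp. Of 8 platelet markers 5 passed the filter, 1 of which rose in MI against Sham (Pf4, a platelet chemokine, log2 fold change 2.66) and 2 in iCarP+/Light+ against MI (Gp6, the collagen receptor, at 1.86, and Clec1b, the podoplanin receptor, at 1.58). Over all genes, 30.2% rose in the first of these comparisons and 11.6% in the second. The 8 markers together came to 22.0 to 39.2 CPM in Sham rats, 77.1 to 241 CPM in MI rats and 102 to 246 CPM in iCarP+/Light+ rats. Their part in the Selp difference was not tested. Pecam1, the endothelial junction protein that platelets and leukocytes also carry, fell in MI against Sham (log2 fold change -0.82, edgeR adjusted p = 1.39e-04) and was 0.05 in iCarP+/Light+ against MI (edgeR adjusted p = 0.873).

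Sele, the selectin that endothelium makes anew when activated, lies near Selp at chr13:82355471-82365341 on the same strand. Sham rats held 8.60, 8.67, 7.21 and 7.81 CPM of Sele, MI rats 21.8, 23.0, 27.6 and 21.5 CPM, and iCarP+/Light+ rats 24.9, 22.6, 16.4 and 15.1 CPM. Every infarcted rat was above every Sham rat, while the iCarP+/Light+ rats spread around and below the MI rats. Sele rose 2.90-fold in MI against Sham (log2 fold change 1.54, SE 0.17, edgeR adjusted p = 5.53e-06). Its log2 fold change in iCarP+/Light+ against MI was -0.25 (SE 0.16, edgeR adjusted p = 0.389), which did not pass the test, although by total counts alone it was -0.51 and did (edgeR adjusted p = 0.0446).

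The balance of the endothelial selectins moved in 1 direction across the groups. The mean log2 ratio of Sele to Selp, each in CPM and so not per length, was 3.36 (SD 0.41) in Sham rats, -0.23 (SD 0.15) in MI rats and -1.82 (SD 0.66) in iCarP+/Light+ rats. The 4 MI rats held -0.26, -0.26, -0.02 and -0.39 and the 4 iCarP+/Light+ rats -1.54, -1.34, -1.61 and -2.80. Groups did not overlap in any of the 3 comparisons, each with a two-sided exact permutation p = 0.0286, the smallest that 4 rats against 4 allow. Adjusted over 30 ratio comparisons this p was 0.0390, a value that 22 of the 30 shared. Scaling of libraries enters such a ratio only through the prior count of 2, which pulls the ratio of a gene at low counts, such as Selp in Sham rats, towards 0.

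Selplg, the gene of PSGL-1, the main selectin ligand of leukocytes, has a short row of 1266 bases at chr12:48577905-48579196 on the plus strand. It was at 15.5, 13.5, 8.96 and 26.2 CPM in Sham rats, 114, 87.0, 107 and 96.9 CPM in MI rats, and 122, 192, 199.9 and 265 CPM in iCarP+/Light+ rats. No group overlapped another, although iCarP+/Light+ rat 1 was only just above the highest MI rat. Selplg rose 6.29-fold in MI against Sham (log2 fold change 2.65, SE 0.30, edgeR adjusted p = 5.95e-06). Against MI it rose 1.92-fold in iCarP+/Light+ rats (log2 fold change 0.94, SE 0.28, edgeR adjusted p = 0.0392). That call depended on single rats and held in 4 of 12 fits that left out 1 rat, with log2 fold changes of 0.68 to 1.11. It was lost without any 1 of the 4 MI rats (adjusted p = 0.0641 to 0.0975), without iCarP+/Light+ rat 2, 4 or 5 (adjusted p = 0.0765, 0.0773 and 0.168) and without Sham rat 1 (adjusted p = 0.0556, all by edgeR). The call was also lost with DESeq2 size factors, at a log2 fold change of 0.90 (edgeR adjusted p = 0.0515), and with total counts alone, at 0.67 (edgeR adjusted p = 0.0797). With replicate number as a block it was lost too, at 0.77 (edgeR adjusted p = 0.117). DESeq2's own Wald test kept it, at 0.90 (adjusted p = 0.0157).

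Set against Ptprc, the pan-leukocyte surface phosphatase CD45, Selplg showed no difference that passed a test. The mean log2 ratio of Selplg to Ptprc was -1.11 (SD 0.49) in Sham rats, -1.45 (SD 0.10) in MI rats and -1.37 (SD 0.21) in iCarP+/Light+ rats. All 3 comparisons overlapped, with exact permutation p of 0.2 for MI against Sham, 0.486 for iCarP+/Light+ against MI and 0.371 for iCarP+/Light+ against Sham. Ptprc itself rose in MI against Sham (log2 fold change 3.07) and in iCarP+/Light+ against MI (log2 fold change 0.84, edgeR adjusted p = 0.0152).

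**Figure D2:**
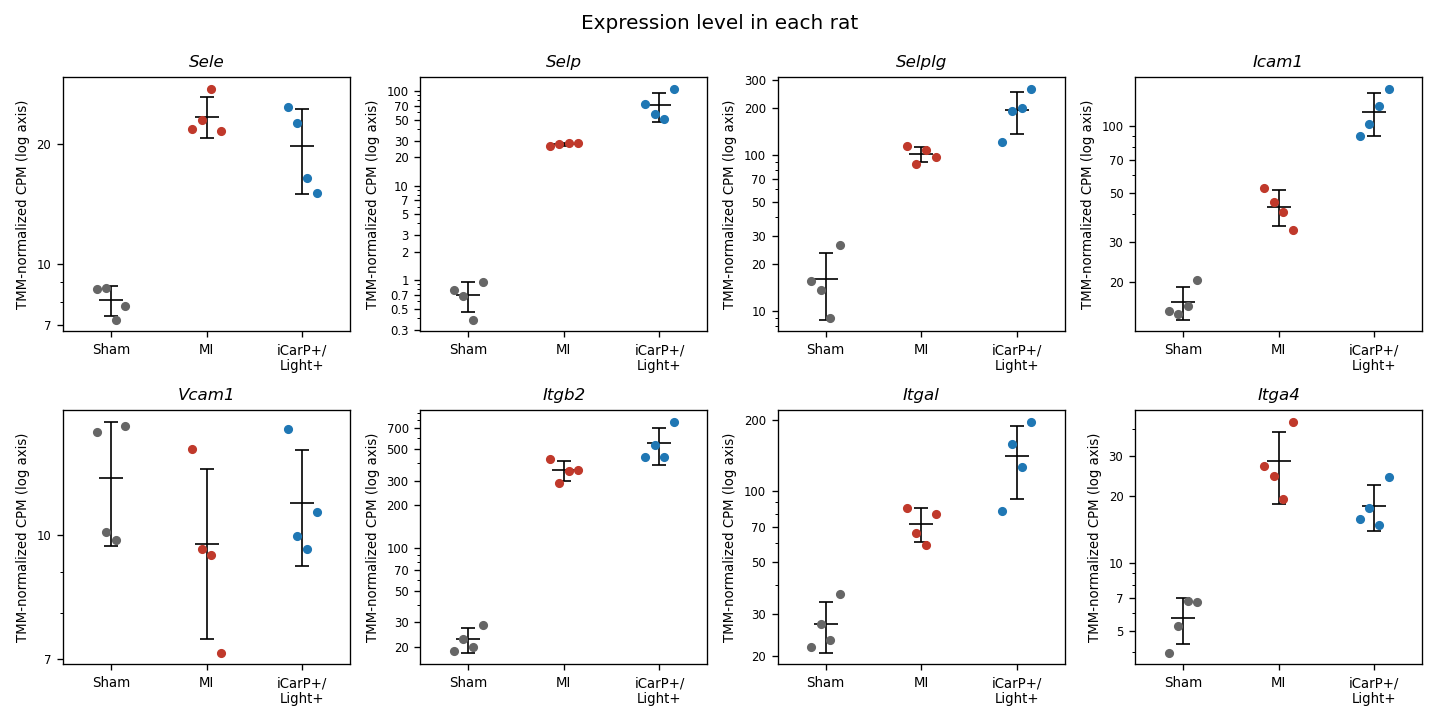
TMM-normalized CPM of each member in each rat (points, log axes that differ between panels), with the group mean and SD as bars, 4 rats a group. Selp, Selplg, Icam1 and Itgb2 step up from Sham to MI to iCarP+/Light+ without overlap, and Vcam1 overlaps throughout.

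Icam1, the endothelial ligand of LFA-1 and Mac-1, which leukocytes and other cells also make, lies at chr8:22035256-22047059 on the plus strand. Sham rats had 14.7, 14.3, 15.6 and 20.3 CPM, MI rats 52.8, 45.7, 40.9 and 34.0 CPM, and iCarP+/Light+ rats 89.6, 102, 122 and 146 CPM. The 3 groups were apart, with the lowest iCarP+/Light+ rat well above the highest MI rat. Icam1 rose 2.67-fold in MI against Sham (log2 fold change 1.42, SE 0.18, edgeR adjusted p = 1.79e-05). It rose by nearly the same factor, 2.65-fold, in iCarP+/Light+ against MI (log2 fold change 1.41, SE 0.18, edgeR adjusted p = 1.57e-04). Leaving out any 1 rat kept this second call, with log2 fold changes of 1.20 to 1.52.

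Vcam1, the endothelial ligand of VLA-4, lies at chr2:219071193-219097619 on the minus strand and was the 1 member with no call in any comparison. It was at 13.4, 10.1, 9.87 and 13.7 CPM in Sham rats, 12.8, 9.60, 9.45 and 7.13 CPM in MI rats, and 13.6, 9.97, 9.62 and 10.7 CPM in iCarP+/Light+ rats. All groups overlapped. The log2 fold changes were -0.27 in MI against Sham (SE 0.20, edgeR adjusted p = 0.247), 0.17 in iCarP+/Light+ against MI (SE 0.20, edgeR adjusted p = 0.656) and -0.10 in iCarP+/Light+ against Sham (SE 0.20, edgeR adjusted p = 0.666), and each changed sign when libraries were scaled by total counts alone. Counts of 130 to 268 per rat lay behind these values.

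Both endothelial ligands have matches just upstream to a loose pattern of the NF-kappaB kind, which is why their upstream sequences are shown. The windows are the 250 bases before the transcript start from RefSeq, build GRCr8, 5′ to 3′ on the gene's strand, and capitals mark matches to GGNNNTTCC or its reverse complement GGAANNNCC. Icam1's window is chr8:27829595-27829844 (plus strand) and Vcam1's is chr2:206742784-206743033 (minus strand), in coordinates of another build than the count table.
Icam1: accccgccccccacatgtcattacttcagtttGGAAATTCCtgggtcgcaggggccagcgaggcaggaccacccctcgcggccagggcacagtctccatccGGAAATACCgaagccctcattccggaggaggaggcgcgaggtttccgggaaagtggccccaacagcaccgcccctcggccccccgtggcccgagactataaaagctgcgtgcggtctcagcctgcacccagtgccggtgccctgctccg
Vcam1: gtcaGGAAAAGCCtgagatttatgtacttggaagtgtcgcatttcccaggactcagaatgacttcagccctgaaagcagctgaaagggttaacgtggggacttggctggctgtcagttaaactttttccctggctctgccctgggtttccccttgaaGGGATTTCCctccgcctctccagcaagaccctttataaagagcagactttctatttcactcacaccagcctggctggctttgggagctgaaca
Icam1 held GGAAATTCC and GGAAATACC, ending 209 and 140 bases before the start, and Vcam1 held GGAAAAGCC and GGGATTTCC, ending 237 and 84 bases before it. Of 33469 such windows, 15.4% held at least 1 match on either strand and 1.57% held 2 or more. A window was found for 5 of the 9 members, and those of Sele, Itgam and Itga4 held no match. These letters were searched for after the sequences had been seen, and stretches that differ from the pattern at any fixed base were not marked. A match is a description of the sequence, and the gene that rose (Icam1) and the one with no call (Vcam1) both had 2.

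Within each library, Icam1 pulled away from Vcam1. The log2 ratio of Icam1 to Vcam1 was 0.13, 0.50, 0.65 and 0.56 in Sham rats, 2.03, 2.24, 2.10 and 2.23 in MI rats, and 2.71, 3.34, 3.65 and 3.76 in iCarP+/Light+ rats. The groups did not overlap in any of the 3 comparisons (exact permutation p = 0.0286 each). The mean difference was 1.69 for MI against Sham and 1.22 for iCarP+/Light+ against MI on the log2 scale.

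Endothelial markers moved with infarction too: all 9 tested fell in MI against Sham (median log2 fold change -0.80), among them Cdh5, the endothelial cadherin, at -1.28 and Emcn, the sialomucin endomucin, at -1.12. Over all genes, 33.6% fell in MI against Sham. None of the 9 was called by edgeR in iCarP+/Light+ against MI (median 0.03), where 11.6% of all genes rose and 2.01% fell. Relative to Pecam1, the mean log2 ratio of Selp was -8.41 in Sham rats, -2.49 in MI rats and -1.20 in iCarP+/Light+ rats, and that of Icam1 was -4.07, -1.85 and -0.48. Neither ratio overlapped between any 2 groups (exact permutation p = 0.0286 in each comparison). For Sele the ratio to Pecam1 was -5.05, -2.72 and -3.02, apart from Sham in both infarcted groups but overlapping between them (exact permutation p = 0.171).

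Vcam1 per Pecam1 was -4.53 in Sham rats, -4.00 in MI rats and -3.84 in iCarP+/Light+ rats on the log2 scale. It overlapped in MI against Sham (exact permutation p = 0.0857) and in iCarP+/Light+ against MI (exact permutation p = 0.571). It was higher in every iCarP+/Light+ rat than in every Sham rat, by 0.69 (exact permutation p = 0.0286), where Pecam1 had fallen and Vcam1 had no call. Pecam1 stood in the table as an unnamed locus described as a match to the rat Pecam1 protein.

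**Figure D3:**
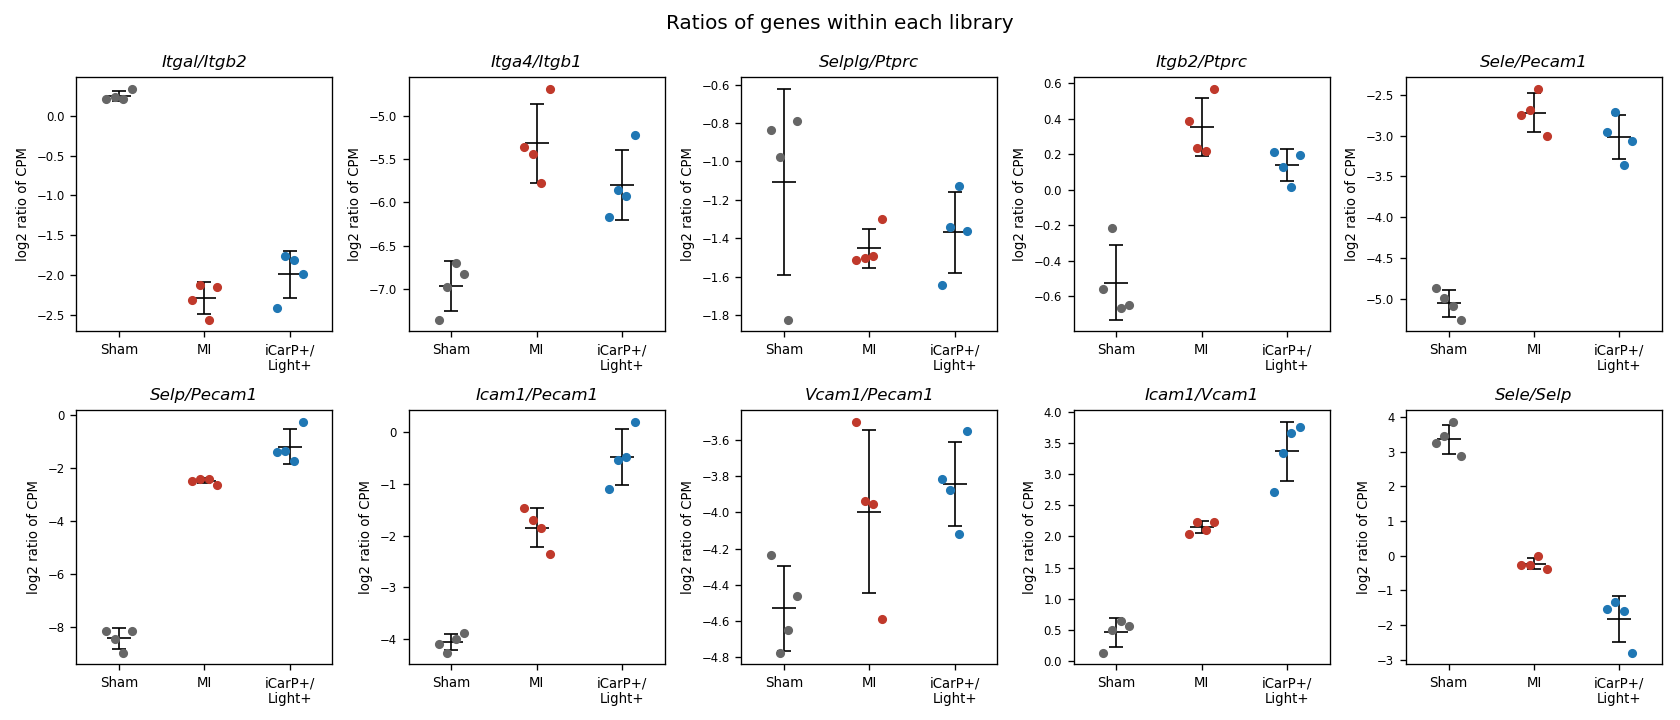
Log2 ratio of the CPM of 2 genes within each library (points), with the group mean and SD as bars, 4 rats a group. Sele/Selp falls and Icam1/Vcam1, Selp/Pecam1 and Icam1/Pecam1 rise from Sham to MI to iCarP+/Light+ without overlap, while Selplg/Ptprc overlaps in all comparisons.

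Itgb2, the shared beta chain of LFA-1 and Mac-1 (CD18), lies at chr20:11777783-11815647 on the minus strand. Its level was 18.9, 23.0, 20.1 and 28.9 CPM in Sham rats, 424, 289.9, 351 and 354 CPM in MI rats, and 439, 532, 441 and 779 CPM in iCarP+/Light+ rats. No 2 groups overlapped, but the lowest iCarP+/Light+ rats were close to MI rat 1, and iCarP+/Light+ rat 5 stood far above. Itgb2 rose 15.6-fold in MI against Sham (log2 fold change 3.96, SE 0.23, edgeR adjusted p = 5.64e-08). Against MI, iCarP+/Light+ rats had a log2 fold change of 0.63 (SE 0.20, edgeR adjusted p = 0.0547), which missed the threshold. Of 12 fits that left out 1 rat, 2 passed, with log2 fold changes of 0.33 to 0.73 over the 12. These were the fits without iCarP+/Light+ rat 1 (0.72, edgeR adjusted p = 0.0324) and without rat 4 of that group (0.72, edgeR adjusted p = 0.0452). DESeq2 also called it (0.58, adjusted p = 0.0372). It did not pass by total counts alone (0.35, edgeR adjusted p = 0.182) or with replicate number as a block (0.52, edgeR adjusted p = 0.149).

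Itgal, the alpha chain of LFA-1, found on most leukocytes and at high level on lymphocytes, lies at chr1:198744050-198781750 on the plus strand. It was at 21.8, 27.2, 23.3 and 36.6 CPM in Sham rats, 84.9, 66.3, 59.2 and 79.7 CPM in MI rats, and 82.2, 157, 126 and 196 CPM in iCarP+/Light+ rats. The Sham rats were apart from all others, and iCarP+/Light+ rat 1 fell within the MI range. Itgal rose 2.66-fold in MI against Sham (log2 fold change 1.41, SE 0.24, edgeR adjusted p = 2.28e-04) and 1.93-fold in iCarP+/Light+ against MI (log2 fold change 0.95, SE 0.24, edgeR adjusted p = 0.0171). Without iCarP+/Light+ rat 5 the second log2 fold change was 0.67 and the call was lost (edgeR adjusted p = 0.0872), as it was by total counts alone (0.66, edgeR adjusted p = 0.0503).

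Alpha and beta chain of LFA-1 did not rise in step. The log2 ratio of Itgal to Itgb2 was 0.25 (SD 0.06) in Sham rats, -2.29 (SD 0.20) in MI rats and -1.99 (SD 0.30) in iCarP+/Light+ rats. It was lower in every infarcted rat than in every Sham rat (exact permutation p = 0.0286 for both groups), and overlapped between the infarcted groups (exact permutation p = 0.143). Itgb2 also outran Ptprc: their log2 ratio was -0.52 (SD 0.21) in Sham rats, 0.35 (SD 0.16) in MI rats and 0.14 (SD 0.09) in iCarP+/Light+ rats. Here all 3 comparisons were apart, and the ratio was lower in iCarP+/Light+ than in MI rats (difference -0.22, exact permutation p = 0.0286).

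The alpha chain of Mac-1 has no row of its own. In its place on chr1 the table has a row named Itgad, which spans 199495298 to 199623960 and encloses the row of Itgax (199555722 to 199576932). In RefSeq GRCr8 the order of genes there is Itgam, Itgax, Itgad, followed by Cox6a2 as in the table, so the row may take in reads of more than 1 of these alpha chains, and it was not assigned to Itgam. The Itgad row was at 11.2, 11.3, 10.6 and 15.0 CPM in Sham rats, 283, 216, 221 and 245 CPM in MI rats, and 365, 555, 438 and 837 CPM in iCarP+/Light+ rats. The 3 groups were apart. Its log2 fold change was 4.33 in MI against Sham (SE 0.26, edgeR adjusted p = 6.80e-08) and 1.18 in iCarP+/Light+ against MI (SE 0.22, edgeR adjusted p = 0.00295). Itgax, the alpha chain CD11c found on dendritic cells and some myeloid cells, had log2 fold changes of 2.26 and 1.32 in the same comparisons, and since the rows overlap its value is uncertain too.

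Itga4, the alpha chain of VLA-4 on monocytes and lymphocytes, lies at chr3:66193059-66263960 on the plus strand. Sham rats held 3.98, 5.26, 6.76 and 6.71 CPM of Itga4, MI rats 27.2, 24.7, 19.3 and 42.9 CPM, and iCarP+/Light+ rats 15.8, 17.6, 14.8 and 24.2 CPM. All infarcted rats were above all Sham rats, and 3 of the 4 iCarP+/Light+ rats were below all MI rats. Itga4 rose 5.02-fold in MI against Sham (log2 fold change 2.33, SE 0.26, edgeR adjusted p = 6.48e-06). Its log2 fold change in iCarP+/Light+ against MI was -0.66 (SE 0.25, edgeR adjusted p = 0.107), which did not pass the test. Of 12 fits that left out 1 rat, 2 passed, without MI rat 4 (-0.80, edgeR adjusted p = 0.0459) and without iCarP+/Light+ rat 5 (-0.91, edgeR adjusted p = 0.0453). Without MI rat 5, the highest at 42.9 CPM, the log2 fold change was -0.39 (edgeR adjusted p = 0.289). It passed by total counts alone (-0.95, edgeR adjusted p = 0.0174) and in DESeq2 (-0.70, adjusted p = 0.0483). It did not pass with replicate number as a block (-0.60, edgeR adjusted p = 0.0718).

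The beta chain of VLA-4, Itgb1, which nearly all cells carry, rose in MI against Sham (log2 fold change 0.63, edgeR adjusted p = 2.82e-04) and stood at -0.13 in iCarP+/Light+ against MI (edgeR adjusted p = 0.508). The log2 ratio of Itga4 to Itgb1 was -6.96 (SD 0.28) in Sham rats, -5.32 (SD 0.46) in MI rats and -5.80 (SD 0.40) in iCarP+/Light+ rats. It was higher in every infarcted rat than in every Sham rat (exact permutation p = 0.0286), and overlapped between MI and iCarP+/Light+ rats (exact permutation p = 0.2).

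Markers of leukocyte types were read beside these genes. Of 9 neutrophil markers tested, 8 rose in MI against Sham (median log2 fold change 4.71), led by the calgranulins S100a8 at 6.37 and S100a9 at 5.94. All 9 rose in iCarP+/Light+ against MI (median 3.53), led by Lcn2, a granule siderophore-binding protein, at 5.13 and Mmp9, gelatinase B, at 4.93. Over all genes, 30.2% rose in MI against Sham and 11.6% in iCarP+/Light+ against MI. The 10 listed markers summed to 20.1 to 33.2 CPM in Sham rats, 384 to 676 CPM in MI rats and 3059 to 8758 CPM in iCarP+/Light+ rats, with no overlap.

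Among 9 monocyte and macrophage markers, 6 rose in MI against Sham, led by Lyz2, lysozyme, at 4.26 and Cd68 at 3.53. Of the 9, 1 rose in iCarP+/Light+ against MI (Adgre1, the F4/80 antigen, at 1.19) and 3 fell, the lowest being Mrc1, the mannose receptor, at -1.02 and C1qa, a complement subunit, at -0.99. Of 9 T and NK cell markers, 6 rose in MI against Sham, led by Cd8a at 5.46 and Cd3g at 2.40, and 1 fell (Cd4, at -0.71). In iCarP+/Light+ against MI edgeR called 2 of the 9, both lower, Cd8a at -1.83 and Cd3e at -1.25. Over all genes, 30.2% rose and 33.6% fell in MI against Sham, and 11.6% rose and 2.01% fell in iCarP+/Light+ against MI. The summed T and NK markers were at 55.4 to 82.3 CPM in Sham rats, 139 to 259 CPM in MI rats and 55.5 to 105 CPM in iCarP+/Light+ rats, and the monocyte and macrophage markers at 524 to 814, 3951 to 6905 and 3008 to 4840 CPM. Beside these sums, Itga4 was at 19.3 to 42.9 CPM in MI rats and 14.8 to 24.2 CPM in iCarP+/Light+ rats. Other leukocyte members went the other way. Itgal was at 59.2 to 84.9 CPM in MI rats and 82.2 to 196 CPM in iCarP+/Light+ rats, and Selplg and Itgb2 were also higher in the latter. What part the cell makeup has in any member's difference was not tested.

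Compared per kilobase of gene length, which allows genes to be set beside each other, the members changed rank. In Sham rats Selplg had the highest mean level at 12.7 CPM per kilobase (SD 5.78), followed by Itgb2 at 7.21, Icam1 at 6.14 and Itgal at 6.04, and neighbours in this order overlapped. Apart from these and below were Vcam1 at 2.94, Sele at 2.30 and Itga4 at 1.74, again overlapping with their neighbours, and Selp was lowest at 0.221 CPM per kilobase, apart from all others.

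After MI the order of levels was Itgb2 at 113 CPM per kilobase, Selplg at 79.9, Icam1 at 16.4, Itgal at 16.1, Itga4 at 8.72, Selp at 8.62, Sele at 6.68 and Vcam1 at 2.43. In this group only Icam1 with Itgal and Itga4 with Selp overlapped their neighbours. Under iCarP+/Light+ treatment Itgb2 reached 174 and Selplg 154 CPM per kilobase, which overlapped. Icam1 at 43.5, Itgal at 31.1 and Selp at 22.5 formed a set overlapping from neighbour to neighbour. Sele at 5.61 and Itga4 at 5.53 overlapped below them, and Vcam1 was lowest at 2.74. Selp thus moved from the lowest place in Sham rats to the fifth in iCarP+/Light+ rats.

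**Figure D4:**
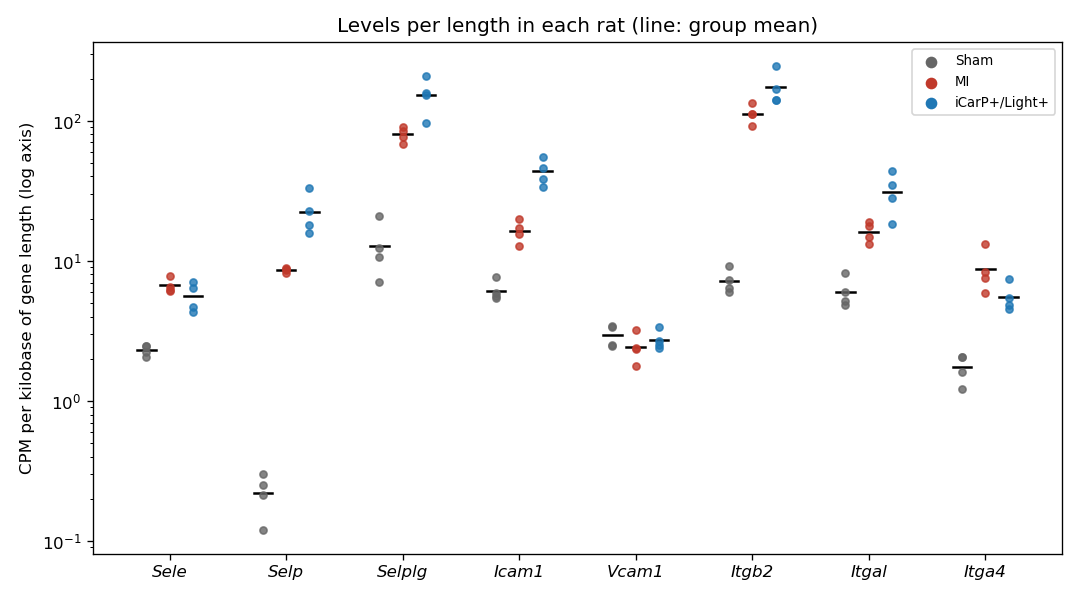
CPM per kilobase of gene length (log axis) of each member in each rat, with a line at the group mean, 4 rats a group. Selp climbs from a mean of 0.221 in Sham to 22.5 in iCarP+/Light+ rats, and Vcam1 stays between means of 2.43 and 2.94.

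Of 48 other genes of the adhesion cascade listed, 44 were tested. In MI against Sham 24 rose, 15 fell and 5 were not called (median log2 fold change 0.62), where 30.2% of all genes rose and 33.6% fell. Among the highest was the Itgad row, given above. The lowest were Cd34, a sialomucin of endothelium and progenitor cells, at -2.27 (SE 0.26, edgeR adjusted p = 6.68e-06) and Jam2, a junctional adhesion molecule, at -1.85 (SE 0.26, edgeR adjusted p = 4.10e-05).

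In iCarP+/Light+ against MI, 8 of the 44 rose, 2 fell and 34 were not called (median log2 fold change 0.12), beside 11.6% of all genes higher and 2.01% lower. Itgax was among the highest, at 1.32 (SE 0.18, edgeR adjusted p = 3.54e-04). The genes that fell were Itga6, the laminin-binding integrin chain, at -0.74 (SE 0.17, edgeR adjusted p = 0.00922) and Alcam, a CD6 ligand, at -0.70 (SE 0.17, edgeR adjusted p = 0.0119).

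**Figure D5:**
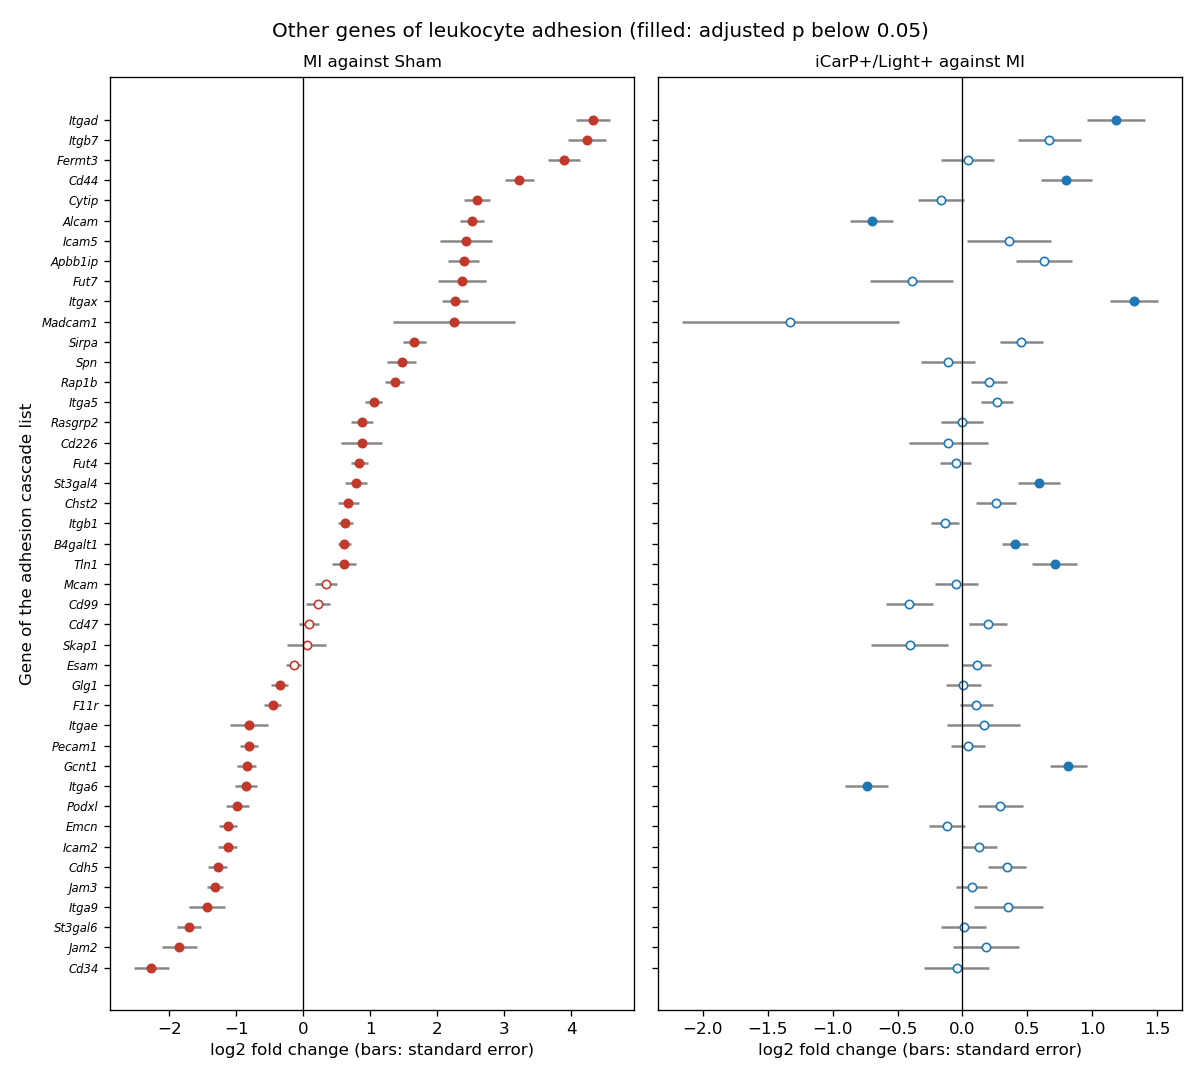
Log2 fold change (horizontal axes, bars for the standard error) of 43 of the 44 other adhesion genes tested, ordered by MI against Sham in both panels and filled where edgeR's adjusted p was below 0.05. The left panel runs from Cd34 at -2.27 to the Itgad row at 4.33, and most points of the right panel are open.

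The genes nearest to each member in pattern were found by the root mean square (RMS) difference between centred log2 CPM profiles of the 12 rats, among 13660 protein-coding genes. Nearest to Icam1 were Eaf1 (RMS 0.161) and Lmnb1 (0.181), where Icam1's own RMS deviation was 1.17. For Itgal they were Stk10 (0.162) and Diaph1 (0.217), and for Itgb2 they were Trpv2 (0.176) and C5ar1, the C5a receptor (0.204). Selplg came closest to Il10ra, the interleukin-10 receptor (0.202), and Laptm5 (0.227).

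Selp, with an RMS deviation of 2.79 of its own, was nearest to Mt2A, a metallothionein (0.349), and Csf2rb, the shared chain of the GM-CSF family of receptors (0.378). Sele was nearest to Ube2q2l (0.167) and Gchfr (0.188), against its own RMS deviation of 0.693. For Itga4 they were Slc36a1 (0.297) and Fam20c (0.301), against an own RMS deviation of 1.02. Nearest to Vcam1 were Prnp (0.173) and Snx14 (0.185), where its own RMS deviation was 0.267.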

How the data were processed

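Libraries were prepared from rat heart tissue with a NEBNext Ultra RNA kit, and the authors deposited raw counts per gene for each of 12 rats, with gene lengths and positions. HISAT2, featureCounts and rn6 are named in the submitters' processing notes. Their settings, versions, strand mode and annotation are not given in the sources used here. The members and gene lists were chosen with earlier results of these data known.

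The analysis used edgeR 4.0.16 under R 4.3.3. filterByExpr (minimum count 10) kept 15101 of 34599 rows. TMM factors and a quasi-likelihood fit with 1 mean per group over all 12 rats gave the 3 comparisons, with p-values adjusted by Benjamini-Hochberg over the 15101 genes and called at 0.05. The script was tested on simulated data. CPM are counts per 1000000 of the TMM-scaled library. Log2 CPM for ratios and patterns had a prior count of 2. For ratios, the 70 arrangements of 4 rats against 4 gave a two-sided exact permutation p, adjusted over 30 comparisons. The 2 planned ratios with Itgam could not be formed. The table has 1716 rows with no symbol, and Pecam1 was found by its description as a protein match.

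Libraries held 14064414 to 17136958 counts. On the TMM scale the floor of 3 counts was 0.144 to 0.228 CPM, which covers counting error only, since no molecular identifiers were used. Within-group pairs of rats had a chi-square per gene of 14.1 to 114, where counting noise gives 1, so none was a copy. Replicate numbers come from sample names and belong to different animals. Deviations from the group means of rats with the same number correlated at -0.15 to 0.07, so no block was used in the model. Genes named are the members, the ratio partners, the 2 nearest patterns per member and, of each list and in the first 2 comparisons, the 2 highest and 2 lowest log2 fold changes among those called. One gene of the adhesion list that this rule takes is not reported here. Other scalings, DESeq2 1.42.0, no filter, only the rats compared, a replicate block and leaving out each rat were tried. Promoter windows are from RefSeq. Figures were drawn with matplotlib 3.10.9.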

Additional observations from a re-analysis of the deposited data

Results flagged for a closer look

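The log2 ratio of Selplg to Ptprc was -1.30 in MI rat 5, against -1.51, -1.50 and -1.49 in the other MI rats, a gap of 0.913 of the group's range, above Dixon's critical value for 4 samples. Such a gap was looked for in 54 groups of 4 rats, in which chance gives 2.70 on average, and this was the 1 found.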

How the results depend on the processing

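The calls of 7 members in MI against Sham and in iCarP+/Light+ against Sham held under all 6 alternatives and without any 1 rat, as did those of Selp and Icam1 in iCarP+/Light+ against MI. Scaling by total counts alone shifted the median log2 fold change of all genes to 0.52, -0.25 and 0.33 in MI against Sham, iCarP+/Light+ against MI and iCarP+/Light+ against Sham. With it Vcam1 changed sign, to 0.31, -0.095 and 0.21, with no call. The genes called went to 7707 higher and 2776 lower in MI against Sham, and to 2722 lower in iCarP+/Light+ against MI, where 2 members were higher and 2 lower.

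In iCarP+/Light+ against MI, 457 genes were lower with DESeq2 size factors and 763 with DESeq2's Wald test, which called 1 member, Itga4, lower. The replicate block left 1157 genes higher and 141 lower, with 2 members higher, since Selplg (0.77, edgeR adjusted p = 0.117) and Itgal (0.81, edgeR adjusted p = 0.0545) were not called. Rats share a replicate number only in name, and the replicate block changed no member's call in the other comparisons. Leaving out 1 rat at a time gave 1124 to 2026 genes higher and 157 to 434 lower, and 2 to 5 members higher and 0 to 1 lower. The fewest genes higher came without iCarP+/Light+ rat 5, and the fewest lower without iCarP+/Light+ rat 2, with 161 without MI rat 1. The causes of these shifts were not tested. All 30 ratio comparisons stayed on their side of the threshold with a prior count of 0.5. For Selp in Sham rats, with 5 to 13 counts, counting error limits the fold.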

Other observations

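Red blood cell and B cell markers were not taken up above. All 5 red blood cell markers tested fell in MI against Sham, led by Slc4a1, the band 3 anion exchanger, at -1.88 and Alas2, the erythroid heme synthesis enzyme, at -1.35 on the log2 scale. Of the 5, 4 rose in iCarP+/Light+ against MI, led by the globins Hbb at 1.60 and Hba-a1 at 1.55 (edgeR adjusted p = 0.0212 and 0.00816). Their sum was 7861 to 10560 CPM in Sham rats, 2503 to 6925 CPM in MI rats and 6181 to 17455 CPM in iCarP+/Light+ rats, so the infarcted groups overlapped. Of 4 B cell markers tested, 1 rose in MI against Sham (Cd22, an inhibitory receptor, at 1.55) and edgeR called none in iCarP+/Light+ against MI. All-gene shares were 30.2% higher and 33.6% lower in MI against Sham, and 11.6% higher and 2.01% lower in iCarP+/Light+ against MI. The B cell markers summed to 3.76 to 7.67 CPM in Sham rats, 8.56 to 14.2 CPM in MI rats and 10.8 to 14.6 CPM in iCarP+/Light+ rats. All 8 cardiomyocyte markers fell in MI against Sham, the lowest being Myh6, the alpha myosin heavy chain, at -4.73 and Pln, phospholamban, at -4.07, and edgeR called none of them in iCarP+/Light+ against MI (median 0.07).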
